A study of Mus musculus with 15 samples.

Results

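The nuclear genes for the mitochondrial respiratory chain and the ATP synthase were followed in mouse splenic B cells, before culture and after 3 days of stimulation. Members were the genes whose symbol starts with Nduf (complex I), Uqcr (complex III), Cox4 to Cox8 (complex IV) or Atp5 (complex V, the ATP synthase), together with Sdha, Sdhb, Sdhc and Sdhd (complex II). Pseudogenes marked -ps were left out. This rule took 92 of the 21761 genes in the table: 45 for complex I, 4 for complex II, 8 for complex III, 18 for complex IV and 17 for complex V. By textbook role, 75 of them are structural subunits, 7 are assembly factors of complex I (Ndufaf1 to Ndufaf7), 8 are isoforms known mainly from single tissues, and 2 (Atp5s and Atp5sl) carry an ATP synthase name without being core subunits. The subunits encoded by the mitochondrial genome were not analysed here.

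Complex I and complex II pass electrons from NADH and succinate to coenzyme Q, complex III passes them on to cytochrome c, and complex IV passes them to oxygen. Protons pumped by complexes I, III and IV drive the ATP synthase, in which a rotor in the membrane part Fo turns a shaft inside the catalytic head F1. Resting B cells are small cells with little metabolic activity, and activated B cells and antibody-secreting plasmablasts are known to enlarge their mitochondria.

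Splenic B cells lacking CD43 were taken from female C57BL/6J mice, and RNA was taken either at once from unstimulated and untreated cells (naive group) or after 3 days with LPS, IL-2 and IL-5. During the culture the cells received 250 nM GSK-J4, an inhibitor of the H3K27 demethylases KDM6A and KDM6B, or the solvent DMSO. Cultured cells were then enriched on magnetic beads into a GL7+ fraction, labelled as activated B cells, and a CD138+ fraction, labelled as plasmablasts, which gave 5 groups of 3 libraries. A library's number gives the mouse its cells came from. The third CD138+ GSK-J4 library, called replicate 4, could be tied to its group but not to a mouse. The labels name no altered gene. The naive cells were neither cultured nor bead-enriched for GL7 or CD138, so stimulation, culture and enrichment cannot be told apart in a comparison with them.

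Levels are RPKM (reads per kilobase of gene length, scaled to the library's reads assigned to genes), which allow comparison between genes as far as the deposited lengths hold. Depth recovered from the values ran up to 13190019 reads (naive replicate 1) and was lowest in naive replicate 2. Recovered reads of all members in that library were even numbers. Its recovered 2635999 reads are therefore an upper limit, and its true depth is probably lower. Differences were tested with limma on log2(RPKM + 1) over the 10866 genes that reached 1 RPKM in 3 or more libraries, and a call means a Benjamini-Hochberg adjusted p under 0.05. Of the 92 members 88 were tested, and Ndufa4l2, Cox7b2, Cox8b and Cox8c fell below the filter. Group values are mean ± SD with n = 3, and library values are listed in the order of mouse 1, 2 and 3 (replicates 1, 2 and 4 for CD138+ GSK-J4). All 7 mature B cell markers were above 1 RPKM in every group, and the summed level of 5 plasma cell markers was 272 to 310.2 RPKM in naive, 598 to 659 in GL7+ DMSO and 2849 to 3063 in CD138+ DMSO libraries.

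In naive cells the members together held 4505 ± 219 RPKM, or 1.36% ± 0.04 of all RPKM. In the GL7+ DMSO libraries they held 10118 ± 437 RPKM (2.67% ± 0.08) and in the CD138+ DMSO libraries 10067 ± 199 RPKM (2.69% ± 0.04). The corresponding sums under GSK-J4 were 10346 ± 396 RPKM in GL7+ cells and 9697 ± 26.3 RPKM in CD138+ cells. Every cultured library thus lay above every naive library, whose sums ran from 4270.5 to 4704 RPKM, while the 4 cultured groups lay close to each other. In bulk RNA of this kind, fewer cells of a type and less RNA per cell cannot be told apart, and RPKM gives shares of the RNA, not amounts per cell.

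The median level over a complex's genes was higher in cultured than in naive libraries for each of the 5 complexes, described here without a test. For complex I it was 29.1 ± 1.18 RPKM in naive, 65.5 ± 4.31 in GL7+ DMSO and 68.7 ± 2.19 in CD138+ DMSO libraries. For complex II it was 38.9 ± 3.31, 101 ± 4.13 and 90.4 ± 3.06 RPKM in the same order. Complex I had the lowest median in every group and complex V the highest. The complex III median went from 51.9 ± 5.55 to 118 ± 4.001 and 120.4 ± 4.12 RPKM. The other 2 were alike in this: the complex IV median went from 51.0 ± 3.02 to 136 ± 4.16 and 141 ± 4.596 RPKM, and the complex V median from 68.9 ± 5.93 to 142 ± 6.70 and 158 ± 1.29 RPKM.

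**Figure D1:**
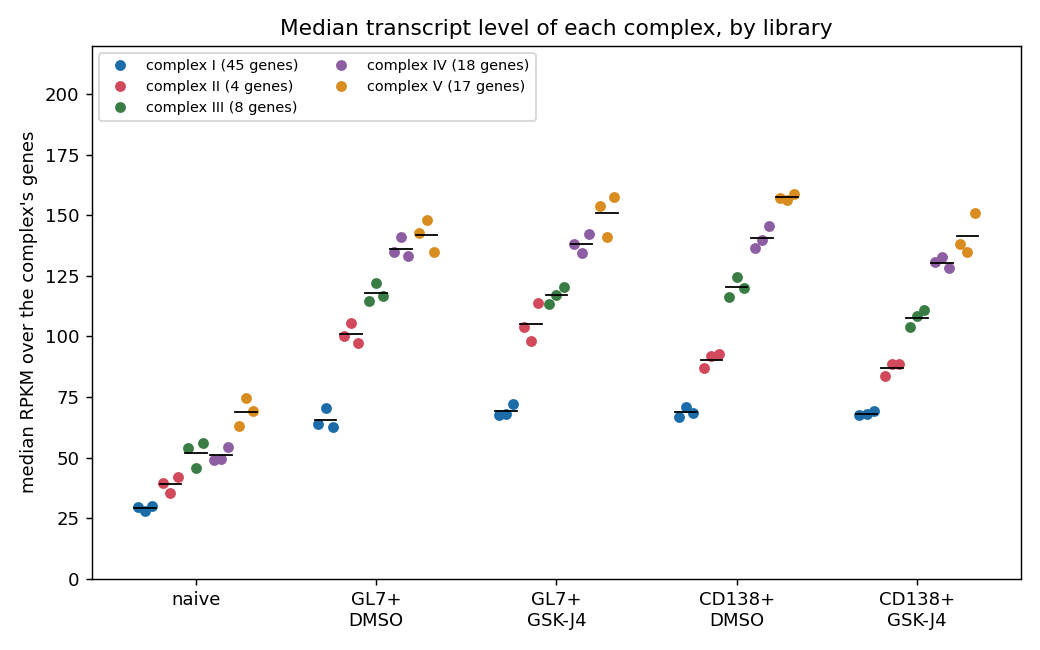
Median RPKM over the genes of each complex (y axis) in each library (points) of the 5 groups (x axis), with the group mean as a bar. The naive libraries lie at 27.7 to 74.7 RPKM over all complexes, and for each complex every cultured library lies above every naive one.

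Against naive cells, 85 of 88 tested members were called higher and 1 lower in GL7+ DMSO cells, and 81 were called higher and 1 lower in CD138+ DMSO cells. In GL7+ DMSO cells that is 96.6% of the tested members higher and 1.14% lower, beside 41.3% and 40.3% of all genes tested. In CD138+ DMSO cells 92.0% of the tested members were higher, beside 39.9% of all genes, and 1.14% were lower, beside 43.5%. The median log2 change of the members was 1.20 in GL7+ cells, with 0.01 for all genes tested, and 1.15 in CD138+ cells, with -0.05 for all genes. A log2 change of at least 1 on the log2(RPKM + 1) scale was found for 55 members in GL7+ and 57 in CD138+ cells. The share of all genes at that cut was not worked out. Every GL7+ DMSO library exceeded every naive library for 86 members (97.7%, against 40.7% of all genes), and every CD138+ DMSO library did so for 79 (89.8%, against 39.4%). The 88 include the isoforms Cox4i2, Cox7a1, Cox6a2 and Cox6b2, which reached 1 RPKM in at most 1 naive library and passed the filter through cultured libraries. In each fraction 3 of these 4 are among the members called higher, and for them the call is no independent support. Both comparisons share the naive libraries, so they are given side by side and not as 2 independent results. These counts were 85 to 86 and 80 to 82 in all (both directions together) when single libraries were left out, naive replicate 2 with its low depth included.

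Markers of B cell stages and of other cells moved with the same contrast. All 7 mature B cell markers were called lower than in naive cells in both fractions, with median log2 changes of -1.11 in GL7+ and -2.24 in CD138+ cells, and their sums were 3680 to 4417 RPKM in naive, 1738 to 1831 in GL7+ DMSO and 1052 to 1112 in CD138+ DMSO libraries. Of the 5 plasma cell markers 3 were called higher and 2 lower in GL7+ cells (log2 changes from -0.75 to 3.81), and all 5 were called higher in CD138+ cells. The summed level of 7 T cell markers was 189.9 to 197 RPKM in naive and 42.4 to 85.7 RPKM in cultured libraries. For 7 myeloid markers the sums were 61.2 to 106 RPKM in naive and 1.54 to 4.21 RPKM in cultured libraries, with 6 markers above 1 RPKM in naive cells and 1 in each cultured group. The sums of 5 erythroid or platelet markers were 70.1 to 85.9 RPKM in naive and 0.77 to 9.61 RPKM in cultured libraries, and those of 4 NK cell markers 2.40 to 3.88 and at most 0.17 RPKM. Of the T cell markers, Cd3e was at 0 in all cultured libraries and at 0.79 RPKM on average in naive ones, and most of the T cell sum was Cd2 in every group (169 RPKM in naive and 55.98 in GL7+ DMSO cells). The T cell sum therefore follows mainly Cd2 and is no measure of the share of T cells. In each cultured group 1 or 2 T cell markers, 1 or 2 myeloid markers (S100a8, S100a9 or Cd14) and 2 or 3 NK cell markers (Ncr1, Klrb1c, Nkg7 or Gzma) were at 0 in all libraries, and none was so in naive cells. The part of these cells in the changes of the members was not tested.

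Complex I is the largest of the complexes, with 7 nuclear-encoded core subunits that carry flavin and iron-sulfur clusters and a shell of accessory subunits. All 44 tested genes of complex I were called higher in GL7+ cells (median log2 change 1.09) and 42 in CD138+ cells (1.12). The 7 core subunits were called in both, with medians of 0.93 and 1.06. Ndufv1, which binds the flavin that takes electrons from NADH, was at 35.2, 32.3 and 36.5 RPKM in the naive, 63.7, 70.4 and 62.5 in the GL7+ DMSO and 68.8, 74.2 and 76.8 in the CD138+ DMSO libraries, with no overlap between naive and cultured cells. Its log2 changes were 0.90 ± 0.07 (SE) and 1.06 ± 0.07, with adjusted p of 2.8e-08 and 3.6e-09. Ndufs1, the large iron-sulfur subunit, rose less, by 0.52 and 0.41 on the log2 scale.

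The accessory subunits covered a wide range. The 29 tested ones had medians of 1.26 and 1.22, and all were called higher in both fractions. The largest changes in GL7+ cells were those of Ndufc2, from 29.7 ± 3.53 to 121 ± 8.01 RPKM (log2 change 2.00), Ndufb6, from 23.02 ± 1.03 to 84.9 ± 5.45 RPKM (1.84), and Ndufc1, from 17.4 ± 1.72 to 62.5 ± 3.09 RPKM (1.79). In the CD138+ cells Ndufb6 (2.02) and Ndufa1 (1.98), a small subunit of the membrane arm, led. At the other end stood Ndufa6, a subunit of the LYR protein family, at 60.7, 71.8 and 63.3 RPKM in naive, 77.4, 77.7 and 72.1 in GL7+ DMSO and 79.9, 79.8 and 87.5 in CD138+ DMSO libraries. Its highest naive library lay just below the lowest GL7+ library, and the log2 changes were 0.21 (adjusted p 0.013) and 0.33 (0.00054). Exons of Ndufb6 overlap those of the antisense gene Smim27 over 39.0% of their length in a GENCODE annotation of another build, so its reads are uncertain where strand was not used.

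Ndufa4, counted by its symbol with complex I although the protein is known as a subunit of complex IV, had the highest level of the Nduf genes. It was at 65.6, 83.3 and 77.7 RPKM in naive, 176, 215 and 185 in GL7+ DMSO and 206, 205 and 214 in CD138+ DMSO libraries, so the naive and cultured ranges stood far apart. Its paralog Ndufa4l2, known as a hypoxia-induced gene, was at 0 in the naive libraries. It held at most 1.504 RPKM elsewhere, or 14 reads, in CD138+ DMSO replicate 1.

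The assembly factors build complex I without staying in it, and their medians were below those of the subunits. Several of the factors were at only a few RPKM, where the log2(RPKM + 1) scale understates changes. How much this adds to the gap from the subunits was not tested. In GL7+ cells all 7 were called higher with a median log2 change of 0.63. In CD138+ cells 5 were called higher with a median of 0.27. Ndufaf2 changed most, from 2.91, 4.72 and 2.18 RPKM in naive to 12.1, 15.03 and 12.7 in GL7+ and 11.9, 12.02 and 10.9 in CD138+ cells under DMSO (1.78 and 1.60 on the log2 scale). Ndufaf1 rose by 0.87 and 0.61. Ndufaf5 and Ndufaf6 were called in GL7+ cells (0.42 and 0.63) and not in CD138+ cells (-0.22 with adjusted p 0.053, and 0.07 with adjusted p 0.59). In some alternatives Ndufaf5 was called lower in CD138+ cells. Among them were voom on the recovered reads (-0.43, adjusted p 0.015) and the fit without naive replicate 2 (-0.31, 0.0066). The calls of the weakest factors depended on single libraries. Without naive replicate 2, where Ndufaf3 was at 2.84 RPKM against 7.67 and 7.59 in the other naive libraries, its log2 changes were 0.23 (adjusted p 0.18) in GL7+ and 0.20 (0.22) in CD138+ cells. Its call in GL7+ cells was also lost without GL7+ DMSO replicate 1 (0.074) or 2 (0.092), and that in CD138+ cells without CD138+ DMSO replicate 2 (0.074) or 3 (0.12). In CD138+ cells the call of Ndufaf4 was lost without naive replicate 2 (0.097) or CD138+ DMSO replicate 1 (0.11). That of Ndufaf7 was lost without any of 10 libraries, with the highest adjusted p of 0.21 without naive replicate 1, and with the mouse as a block (0.066).

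Complex II is both an enzyme of the tricarboxylic acid cycle and an entry point of the chain, and its 4 genes behaved unequally. Sdha, the flavoprotein subunit that oxidises succinate, was at 90.7, 93.4 and 93.6 RPKM in naive, 116, 119.6 and 114 in GL7+ DMSO and 89.2, 89.004 and 87.3 in CD138+ DMSO libraries. It was higher in GL7+ than in naive cells (0.33 ± 0.04, adjusted p 6.3e-07) and not called in CD138+ cells (-0.06 ± 0.04, adjusted p 0.11). With quantile normalization its changes were -0.036 (adjusted p 0.32) and -0.39 (2.4e-08), so both calls depend on the scaling. Sdhb, the iron-sulfur subunit, rose from 45.01 ± 3.75 to 105 ± 5.65 and 109 ± 2.202 RPKM. Of the 2 membrane anchors, Sdhc went from 33.8, 29.6 and 33.4 RPKM to 64.1, 72.6 and 63.9 in GL7+ and 84.7, 94.5 and 98.01 in CD138+ cells. Sdhd went from 32.2, 25.98 and 35.2 RPKM to 95.7, 101 and 95.5 in GL7+ and 81.2, 81.1 and 82.3 in CD138+ cells, so that Sdhc had its highest values in CD138+ and Sdhd in GL7+ libraries. In naive cells Sdha was thus 2.98 times the level of the lowest gene of the complex, Sdhd. The highest gene was 1.74 times the lowest in GL7+ DMSO and 1.33 times in CD138+ DMSO cells.

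In complex III all 8 genes were called higher in both fractions, with medians of 1.20 and 1.22. The small subunit Uqcrq changed most, from 22.98, 17.2 and 25.2 RPKM in naive to 100.5, 113 and 102 in GL7+ DMSO and 129, 142 and 138 in CD138+ DMSO libraries. The log2 changes were 2.23 ± 0.10 (adjusted p 2.4e-11) and 2.60 ± 0.10 (3e-12). Uqcr11, also a small subunit of the membrane part, followed with 15.3, 14.03 and 17.5 RPKM in naive, 53.7, 61.9 and 52.4 in GL7+ DMSO and 67.03, 64.7 and 70.5 in CD138+ DMSO libraries. The core proteins Uqcrc1 (0.94 and 0.82) and Uqcrc2 (1.08 and 0.87) and the Rieske iron-sulfur protein Uqcrfs1 (1.25 and 1.33) lay in between. Uqcrh, the hinge protein at the cytochrome c side, was the highest in naive cells and changed least, from 148 ± 17.98 to 216 ± 4.195 and 222 ± 7.34 RPKM. The low genes rose more than the high one, and the ratio of the highest to the lowest level in the complex was 9.47 in naive, 3.86 in GL7+ DMSO and 3.29 in CD138+ DMSO cells. Over the structural subunits of complexes I, IV and V this ratio was 21.4, 4.31 and 15.9 in naive cells, 27.7, 3.84 and 19.1 in GL7+ DMSO cells, and 22.5, 3.64 and 14.98 in CD138+ DMSO cells, so that of these 3 only complex IV had a lower ratio than in naive cells in both fractions. The lowest in complexes I and V, Ndufa11 and Atp5j2, have deposited lengths of 4537 and 2592 bases, beside a median of 812.5 over the members, and a longer summed length lowers RPKM.

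In complex IV the 11 ubiquitous subunits were called higher in GL7+ cells, and 10 in CD138+ cells. Cox4i1, the general form of subunit 4, was at 159, 203 and 183 RPKM in naive, 405, 442 and 398 in GL7+ DMSO and 411, 421 and 409.5 in CD138+ DMSO libraries, the highest level in the complex. Its log2 changes were 1.19 and 1.19. Cox5a, which sits on the matrix side, rose most of the ubiquitous subunits, by 1.80 and 1.62, although 41.7% of its exon bases are shared with the antisense gene Gm26631. Cox6a1 rose by 1.25 and 1.57. The least changed gene was Cox7a2l, counted here with the ubiquitous subunits, at 147, 157 and 158 RPKM in naive, 182, 178 and 177 in GL7+ DMSO and 155, 166 and 160.5 in CD138+ DMSO libraries. It was called higher in GL7+ cells (0.21, adjusted p 0.00037) and not in CD138+ cells (0.06, 0.23; 0.13 with adjusted p 0.016 by median-of-ratios scaling). With quantile normalization the direction turned to -0.12 (adjusted p 0.015) and -0.30 (7.5e-06), so its sign depends on the scaling.

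The ATP synthase has 5 subunits in F1 and, in this table, 10 in Fo and the stalks, and all 15 were called higher in both fractions. Atp5b, the catalytic beta subunit, had the highest level of all members, at 239, 249.9 and 263 RPKM in naive, 754, 805 and 760.4 in GL7+ DMSO and 665, 690.4 and 681 in CD138+ DMSO libraries. Its log2 changes were 1.62 ± 0.05 and 1.43 ± 0.05, and those of Atp5a1, the alpha subunit, 1.36 and 1.12. The small epsilon subunit Atp5e rose least in GL7+ cells, by 0.65, and the delta subunit Atp5d least in CD138+ cells, by 0.76. Medians over the 10 Fo and stalk genes were 1.31 and 1.46, and over the 5 F1 genes 1.07 and 0.88. Atp5sl, whose product is known for a role in the assembly of the membrane arm of complex I, went the other way. It was at 52.8, 49.2 and 50.3 RPKM in naive, 15.7, 15.4 and 15.7 in GL7+ DMSO and 10.3, 9.201 and 9.37 in CD138+ DMSO libraries, and fell by 1.64 ± 0.09 (adjusted p 1.7e-10) and 2.28 ± 0.09 (2.7e-12) on the log2 scale. By limma on all 15 libraries without rescaling, it was the only member called lower in either comparison. It was also the only one with its highest group mean in naive cells. Ndufaf5, Sdha and Cox7a2l were called lower in some of the alternatives given above. Atp5s, at 1.39 to 4.74 RPKM over all libraries, was called in neither comparison.

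**Figure D2:**
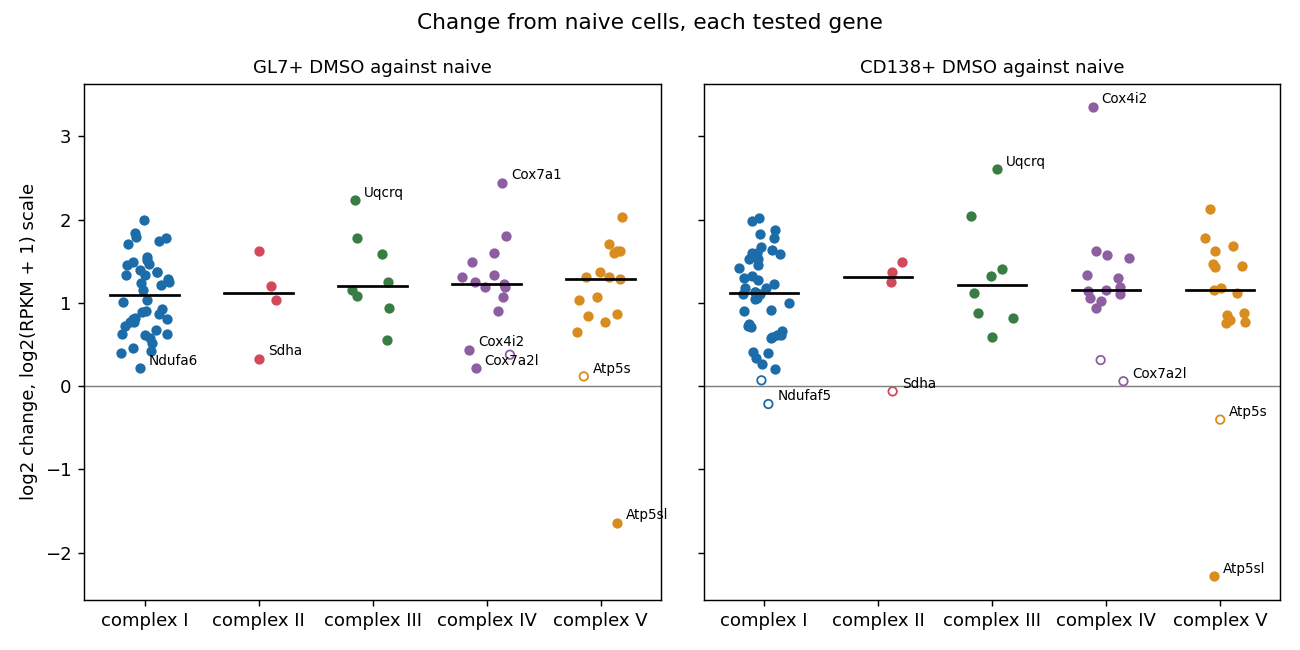
Log2 change from naive cells on the log2(RPKM + 1) scale (y axis) for each tested gene, by complex (x axis), in GL7+ DMSO (left) and CD138+ DMSO cells (right). Filled points passed an adjusted p of 0.05, open points did not, and bars are medians, which lie between 1.09 and 1.31 for every complex while Atp5sl lies at -1.64 and -2.28.

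Subunit c of the ATP synthase, the ring that rotates in the membrane, is encoded by the 3 genes Atp5g1, Atp5g2 and Atp5g3, whose precursors give the same mature protein. In naive cells Atp5g2 was the main transcript, with 53.3% ± 2.15 of their summed RPKM, followed by Atp5g3 with 35.3% ± 2.69 and Atp5g1 with 11.4% ± 0.75. Atp5g1 rose from 28.9, 33.03 and 31.7 RPKM to 123, 141 and 126 in GL7+ and 133, 144 and 142 in CD138+ cells under DMSO. Atp5g3 rose from 99.7, 88.3 and 104 RPKM to 297, 328 and 332 (GL7+) against 327, 330.5 and 348 (CD138+). Atp5g2 rose from 133, 149 and 158 RPKM to 260.4, 286 and 259 (GL7+) against 255, 277 and 265 (CD138+), the least of the 3. The log2 changes in the 2 fractions were 2.03 and 2.13 for Atp5g1, 1.71 and 1.78 for Atp5g3 and 0.87 and 0.85 for Atp5g2. Atp5g3 was therefore the leading transcript in cultured cells, with 44.4% ± 1.60 in GL7+ DMSO and 45.3% ± 1.13 in CD138+ DMSO cells, and the Atp5g1 share was 18.1% ± 0.56 and 18.9% ± 0.28. The shares of Atp5g1 did not overlap between naive and cultured libraries, and the exact two-sided permutation p of 0.1 is the smallest that 3 against 3 can give. Reads of these genes can be split with near-identical copies, so the shares are uncertain to that extent.

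The promoters of these genes are shown because they differ in sequence while the product is the same. Each run is the 120 bases before the start of the gene in a RefSeq table of the GRCm38.p6 build, on the gene's own strand and read 5′ to 3′. Capitals mark the NRF1 motif GCGCATGC (reverse GCATGCGC), where NRF1 is a regulator of nuclear genes for mitochondria, and overlapping matches run together. Atp5g1 lies at chr11:96075632-96075751, Atp5g2 at chr15:102671048-102671167 and Atp5g3 at chr2:73911327-73911446, all on the minus strand.
Atp5g1: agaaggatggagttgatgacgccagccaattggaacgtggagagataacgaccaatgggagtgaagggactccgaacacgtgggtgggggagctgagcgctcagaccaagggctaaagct
Atp5g2: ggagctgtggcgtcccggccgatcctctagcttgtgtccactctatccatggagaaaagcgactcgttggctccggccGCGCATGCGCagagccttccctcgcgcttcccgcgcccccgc
Atp5g3: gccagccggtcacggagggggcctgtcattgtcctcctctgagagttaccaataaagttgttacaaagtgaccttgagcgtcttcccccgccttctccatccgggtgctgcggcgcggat
Only the Atp5g2 window held that motif, as 2 overlapping matches 42 and 40 bases before the start, and Atp5g2 had the smallest log2 change of the 3. In the windows of the other genes these letters were absent, which says nothing about binding of the factor.

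Over 300 bases around the start (250 before and 50 after), 76 of the 92 members (82.6%) had an entry in that table, 6 of them with more than 1 start. The NRF1 motif was found on either strand in 12 of 76 (15.8%), against 3.05% of 27025 genes. The ETS core CCGGAAG, the letters read by the NRF2/GABP factor, was found in 17 (22.4%, against 9.93%), and the YY1 core AAGATGGC in 11 (14.5%, against 3.19%). The cyclic AMP response element TGACGTCA was found in 4 (5.26%, against 2.03%) and the SP1 core GGGCGG in 34 (44.7%, against 38.2%). The genes tested here, of which 8613 of 10866 had an entry, held the same motifs in 6.47%, 22.5%, 5.81%, 3.70% and 69.5%. Beside these, the member shares were higher for the NRF1, YY1 and cyclic AMP motifs, close for the ETS core and lower for SP1. A match is a stretch of letters and not a bound site. The ETS core can be seen in Uqcr11 (chr10:80406822-80406941) and, in its reverse form CTTCCGG, in Sdhd (chr9:50603850-50603969). Both were picked from the genes above with their changes known, lie on the minus strand, and have the ETS core in capitals.
Uqcr11: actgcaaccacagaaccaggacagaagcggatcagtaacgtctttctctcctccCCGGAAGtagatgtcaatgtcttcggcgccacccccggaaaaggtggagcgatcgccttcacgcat
Sdhd: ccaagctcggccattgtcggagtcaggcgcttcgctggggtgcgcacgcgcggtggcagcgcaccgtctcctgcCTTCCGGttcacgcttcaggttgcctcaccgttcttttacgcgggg
The start of the motif lay 66 bases before the start of Uqcr11 and 46 bases before that of Sdhd.

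Between the 2 fractions under DMSO, few members differed by much. Of 88 tested members 14 (15.9%) were called higher and 21 (23.9%) lower in CD138+ than in GL7+ cells, with 21.8% and 36.9% of all genes tested. Both shares are below those of all genes, and the median log2 difference of the members was -0.06, with -0.10 for all genes. The split depended on the scaling: with median-of-ratios scaling it was 31 higher and 13 lower. With only these 2 groups in the fit 23 were higher and 31 lower. The summed level of the 7 mature B cell markers moved with the same contrast, at 1738 to 1831 RPKM in GL7+ DMSO and 1052 to 1112 RPKM in CD138+ DMSO libraries.

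Of the 7 assembly factors of complex I, 4 were called lower in CD138+ cells, beside 36.9% of all genes tested, and the median of the 7 was -0.37. Ndufaf5, which hydroxylates a core subunit, was at 3.28, 3.75 and 4.04 RPKM in GL7+ DMSO and 2.08, 2.02 and 1.97 in CD138+ DMSO libraries (-0.63 ± 0.10, adjusted p 6.5e-05). Ndufaf6 was at 2.79, 2.83 and 2.78 RPKM in GL7+ and 1.59, 1.58 and 1.55 RPKM in CD138+ cells (-0.56). In the same order Ndufaf4 was at 10.4, 11.5 and 10.2 (GL7+) against 8.76, 6.51 and 7.55 (CD138+) RPKM (-0.45), and Ndufaf7 at 7.04, 7.43 and 7.55 (GL7+) against 5.74, 5.4 and 5.18 (CD138+) RPKM (-0.37). In none of these 4 genes did the libraries of the fractions overlap. In F1, 3 of 5 subunits were lower: Atp5a1 (-0.25), Atp5b (-0.19) and Atp5c1, the gamma subunit of the central stalk (-0.19). The calls of Atp5b and Atp5c1 were lost with median-of-ratios scaling (adjusted p 0.28 and 0.18). Of the 10 Fo and stalk genes, Atp5f1 was lower (-0.13) and Atp5j2 higher (0.16), both small in size. The call of Atp5j2 was lost without GL7+ DMSO replicate 1 (0.11) or 3 (0.067) or CD138+ DMSO replicate 3 (0.095).

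Of the 29 accessory subunits of complex I, 7 were called higher and 3 lower in CD138+ cells, beside 21.8% and 36.9% of all genes tested. The share called higher was thus near that of all genes. Ndufa1 differed most, at 70.96, 80.1 and 75.3 RPKM in GL7+ DMSO and 125, 125 and 137 in CD138+ DMSO libraries (0.76 ± 0.07, adjusted p 4.1e-07), and the libraries of the fractions lay far apart. Ndufb11 (0.43), Ndufs5 (0.43) and Ndufa13 (0.41) followed. Ndufc2 (-0.40), Ndufa10 (-0.37) and Ndufa8 (-0.29) were lower, and so was the core subunit Ndufv2 (-0.34). In complex II the genes went apart: Sdhc was higher (0.46, adjusted p 0.00012) while Sdha (-0.39, 3.2e-07) and Sdhd (-0.25, 0.015) were lower in CD138+ cells. In complex III Uqcrq (0.37) and Uqcr11 (0.27) were higher and Uqcrc2 (-0.21) and Uqcr10 (-0.18) lower. Of complex IV, Cox6a1 (0.32) and Cox7a2 (0.20) were higher, and Cox7a2l (-0.16) and Cox5a (-0.17) lower. Of the 32 calls named by rule here and among the isoforms, 21 held under every alternative. The call of Cox5a was lost without any of 10 libraries (highest adjusted p 0.18, without GL7+ DMSO replicate 2) and that of Uqcr10 without GL7+ DMSO replicate 2 (0.14) or CD138+ DMSO replicate 1 (0.12) or 3 (0.09). Sdhd lost its call without GL7+ DMSO replicate 2 (0.053), and Cox7a2 without GL7+ DMSO replicate 3 (0.053) or CD138+ DMSO replicate 3 (0.078). With median-of-ratios scaling the adjusted p was 0.11 for Sdhd, 0.38 for Uqcr10, 0.084 for Uqcrc2, 0.46 for Cox5a and 0.42 for Cox7a2l.

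**Figure D3:**
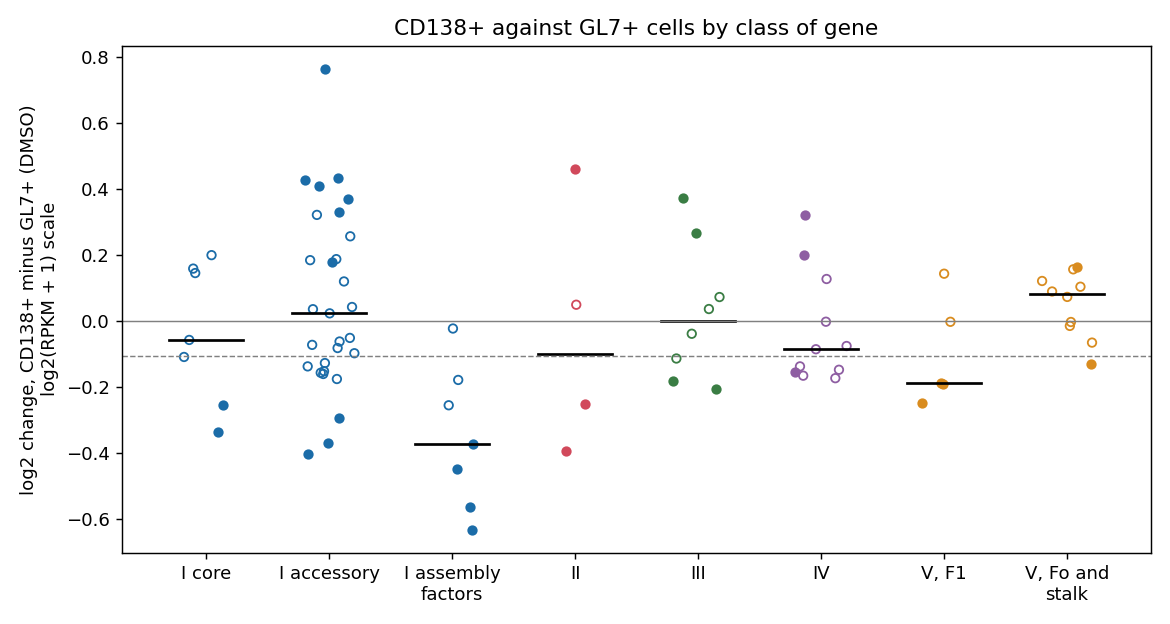
Log2 difference between CD138+ and GL7+ cells under DMSO on the log2(RPKM + 1) scale (y axis) by class of gene (x axis), without the tissue-restricted isoforms, Ndufa4, Atp5s and Atp5sl. Filled points passed an adjusted p of 0.05, black bars are class medians, and the dashed line at -0.10 is the median of all genes tested; the assembly factors have the lowest median (-0.37) and Ndufa1 the highest value (0.76).

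Of all members, 2 isoforms of complex IV known mainly from single tissues had the largest differences between the fractions. Cox4i2, the form of subunit 4 known from lung and from low oxygen, was at 0.087, 0 and 0 RPKM in naive libraries, or 1, 0 and 0 reads. It was at 0.497, 0.6 and 0.12 RPKM in GL7+ DMSO (5, 6 and 1 reads) and at 8.64, 10.3 and 9.596 RPKM in CD138+ DMSO libraries (73, 105 and 92 reads). The CD138+ libraries thus stood apart from all others, with a log2 difference from GL7+ DMSO cells of 2.92 ± 0.13 on the log2(RPKM + 1) scale, which understates changes of low genes. Only CD138+ libraries reached 1 RPKM, so Cox4i2 passed the filter through the group where it is high. Its differences from that group are therefore a description with no test, although it is counted among the members called. No fold is given against so few naive reads. Even in CD138+ DMSO cells Cox4i2 made up only 2.25% ± 0.17 of the summed RPKM of Cox4i1 and Cox4i2.

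Cox7a1, the form of subunit 7a of heart and skeletal muscle, had the opposite order. It was at 0.62, 0 and 0.89 RPKM in naive, 6.17, 7.88 and 6.69 in GL7+ DMSO and 1.98, 1.88 and 2.24 in CD138+ DMSO libraries. These values rested on few reads: 3, 0 and 2 in naive, 26, 33 and 24 in GL7+ DMSO and 7, 8 and 9 in CD138+ DMSO libraries. Every GL7+ DMSO library lay above every CD138+ DMSO library, which lay above every naive one. The log2 difference between the fractions was -1.38 ± 0.25 (adjusted p 0.00029). Its share of the summed RPKM of Cox7a1 and Cox7a2 was 1.20% ± 1.08 in naive, 6.00% ± 0.59 in GL7+ DMSO and 1.60% ± 0.06 in CD138+ DMSO cells. Cox6a2, also a muscle form, was at 1.27, 0 and 0.25 RPKM in naive, 3.16, 2.92 and 3.87 in GL7+ DMSO and 2.67, 2.87 and 1.94 in CD138+ DMSO libraries, and did not pass the test between the fractions (-0.31, adjusted p 0.26). It rested on 0 to 25 reads over all libraries. Cox6b2, a form known from testis, stayed at or under 2.35 RPKM. Cox7b2 and Cox8c were listed at 0 in all 15 libraries, and Cox8b, at most 0.68 RPKM, rested on 0 to 3 reads.

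**Figure D4:**
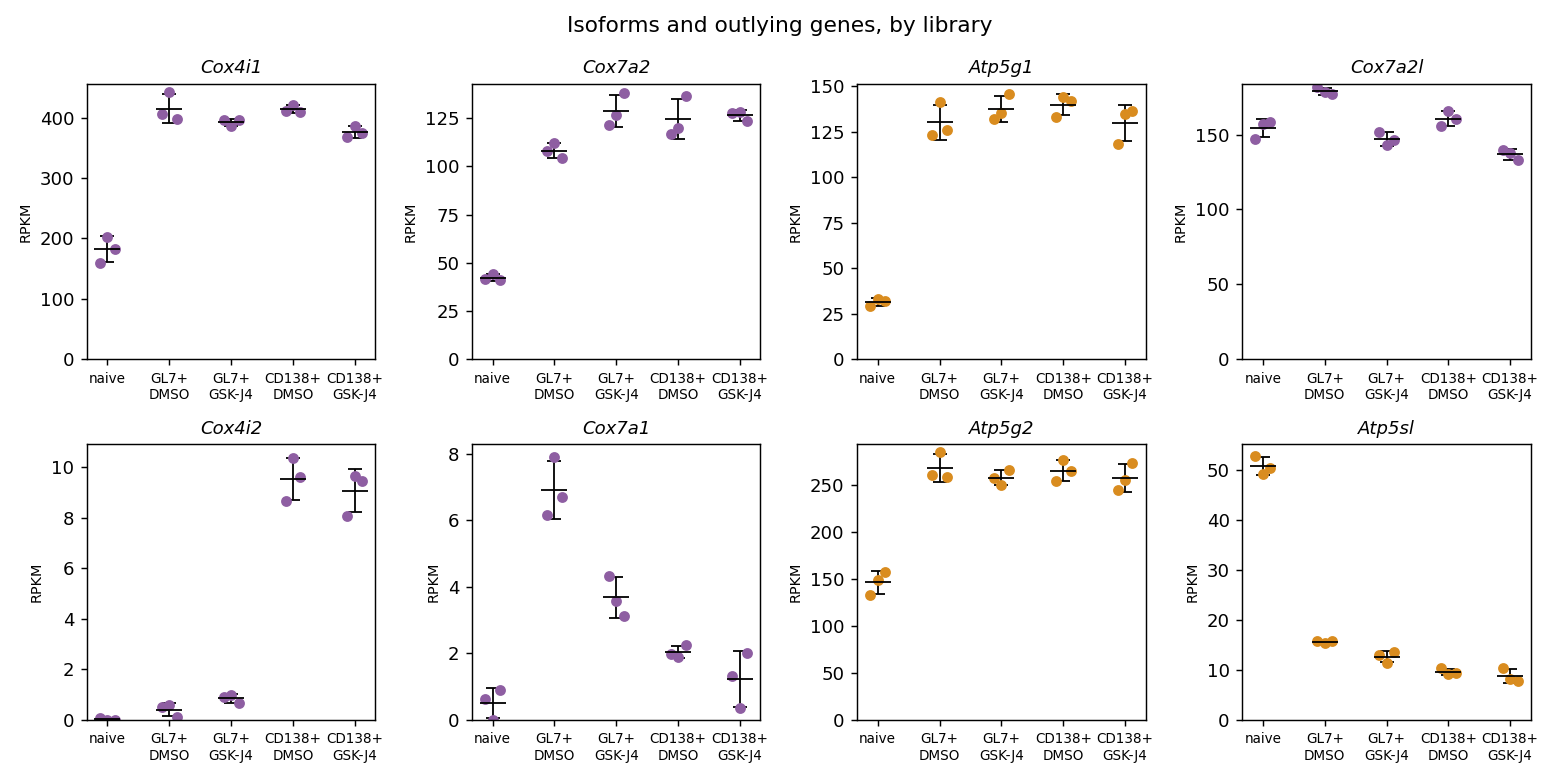
RPKM (y axes, from 0) in each library (points) of the 5 groups (x axes), with mean and SD, for the isoform pairs Cox4i1 and Cox4i2 and Cox7a2 and Cox7a1, the subunit c genes Atp5g1 and Atp5g2, and Cox7a2l and Atp5sl. Cox4i2 is high in both CD138+ groups (8.08 to 10.3 RPKM), Cox7a1 in GL7+ DMSO (6.17 to 7.88 RPKM), and Atp5sl in naive cells (49.2 to 52.8 RPKM).

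Few members differed between GSK-J4 and DMSO, and the differences were small. The DMSO libraries here are those of the comparison between the fractions, so the comparisons are not independent. In GL7+ cells 4 members were called higher (4.55% of those tested, beside 5.81% of all genes) and 3 lower (3.41%, beside 7.71%). In CD138+ cells 4 were called higher (4.55%, beside 4.61%) and 10 lower (11.4%, beside 8.61%). The members' median log2 change was 0.03 in GL7+ and -0.08 in CD138+ cells, with -0.01 and -0.03 for all genes, so neither the counts nor the medians stood far from the background. With median-of-ratios scaling the GL7+ split was 5 higher and 2 lower, and with quantile normalization the CD138+ split was 2 higher and 10 lower. The numbers also moved with single libraries. The 7 calls in GL7+ cells became 14 without naive replicate 2, 4 without GL7+ DMSO replicate 2 or CD138+ DMSO replicate 3, 3 without GL7+ GSK-J4 replicate 1, 2 without GL7+ DMSO replicate 3 or GL7+ GSK-J4 replicate 2 or 3, and 1 without GL7+ DMSO replicate 1. The 14 calls in CD138+ cells became 7 to 9 without any 1 library of the CD138+ groups. With the mouse as a block, which in effect drops CD138+ GSK-J4 replicate 4, there were 7 (2 higher and 5 lower).

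The gene called lower in both fractions under GSK-J4 was Cox7a2l. It was at 182, 178 and 177 RPKM with DMSO and 152, 143 and 147 with GSK-J4 in GL7+ cells, and at 155, 166 and 160.5 (DMSO) against 139.9, 137 and 133 (GSK-J4) in CD138+ cells, with no overlap in either. The log2 changes were -0.28 ± 0.04 (adjusted p 0.0012) and -0.23 ± 0.04 (0.0034). It was also the only call in GL7+ cells that held under every alternative.

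In GL7+ cells the others called lower were Ndufv3, a small subunit of the end that takes up NADH, and Atp5sl. Ndufv3 was at 49.4, 49.9 and 40.9 RPKM with DMSO and 39.4, 32.9 and 36.4 with GSK-J4 (-0.36, adjusted p 0.031), and Atp5sl at 15.7, 15.4 and 15.7 (DMSO) against 13.03, 11.3 and 13.5 (GSK-J4) RPKM (-0.29, 0.041). The groups did not overlap in either gene. In the same contrast the summed level of the 7 mature B cell markers was 1738 to 1831 RPKM with DMSO and 1308 to 1494.6 RPKM with GSK-J4, with 4 of 7 called lower, and that of the 5 plasma cell markers was 598 to 659 and 773 to 868 RPKM, with all 5 called higher. Their part in the differences of the members was not tested. The genes called higher were Cox7a2 (0.25, adjusted p 0.018), Ndufb6 (0.19, 0.032), Ndufaf4 (0.32, 0.047) and Cox4i2 (0.41, 0.044). Cox4i2 rested on 1 to 6 reads with DMSO and 7 to 8 reads with GSK-J4. When single libraries were left out, the adjusted p of these calls reached 0.13 for Ndufv3 (without GL7+ GSK-J4 replicate 2), 0.18 for Atp5sl (without the same library) and 0.084 for Cox7a2 (without GL7+ GSK-J4 replicate 3). It reached 0.14 for Ndufb6 and 0.19 for Cox4i2 (both without GL7+ DMSO replicate 3), and 0.16 for Ndufaf4 (without GL7+ GSK-J4 replicate 3). The number of libraries whose omission ended the call was 4 for Ndufv3, 8 for Atp5sl, 3 for Cox7a2, 5 for Ndufb6, 9 for Cox4i2 and 11 for Ndufaf4. The call of Ndufv3 was also lost with median-of-ratios scaling (adjusted p 0.055) and with quantile normalization (0.054). That of Ndufb6 was lost with quantile normalization (0.05), and that of Cox4i2 by voom on the recovered reads (0.083). Cox7a1, the muscle isoform, was at 6.17, 7.88 and 6.69 RPKM with DMSO and 4.33, 3.57 and 3.13 with GSK-J4, and its libraries did not overlap either. It did not pass the test (-0.76 ± 0.25, adjusted p 0.061), but did in several alternatives, such as the mouse as a block (0.035) and a fit of these groups alone (0.012).

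In CD138+ cells the members called lower under GSK-J4 came from all 5 complexes, with Sdha alone for complex II. The largest was that of the F1 epsilon subunit Atp5e, at 187, 210.5 and 219 RPKM with DMSO and 149, 156 and 152 with GSK-J4 (-0.43 ± 0.08, adjusted p 0.0026). Ndufs4, an accessory subunit of the peripheral arm, was at 31.1, 29.8 and 28.8 (DMSO) against 25.6, 24.5 and 22.9 (GSK-J4) RPKM (-0.29, 0.011). Cox5a was at 168, 181 and 182 (DMSO) against 133, 148 and 159 (GSK-J4) RPKM (-0.27, 0.022), and Atp5a1 at 318, 337 and 319.6 (DMSO) against 263, 274 and 280.4 (GSK-J4) RPKM (-0.25, 0.0039). The libraries with and without the drug did not overlap in any of these. Ndufb6 (-0.25), Atp5g3 (-0.24), Uqcrc1 (-0.18), Uqcrc2 (-0.18) and Sdha (-0.12) were lower as well. Sdhd (-0.23, adjusted p 0.075) and Uqcrfs1 (-0.29, 0.1) changed more than Sdha but were not called. By voom on the recovered reads both were called (0.015 and 0.0076), as in a fit of these groups alone (0.0085 and 0.011). Higher under GSK-J4 were Ndufa12, an accessory subunit of the peripheral arm of complex I, at 121, 119.9 and 116 RPKM with DMSO and 187, 153 and 161 with the drug (0.48 ± 0.10, 0.0065), and the complex III subunit Uqcrb, at 159, 156 and 149.7 (DMSO) against 201, 187 and 187 (GSK-J4) RPKM (0.30, 0.0086). Ndufa5 (0.31) and the complex IV subunit Cox8a (0.20) were higher too. Some of these calls depended on the scaling. With median-of-ratios scaling those of Sdha (adjusted p 0.13) and Uqcrc1 (0.062) were lost. With quantile normalization those of Cox8a (0.055) and Ndufa5 (0.062) were lost. By voom on the recovered reads Sdha was not called (0.063). With the mouse as a block the calls of Ndufa5 (adjusted p 0.089), Cox8a (0.1), Ndufs4 (0.089), Sdha (0.12), Uqcrc1 (0.08), Uqcrc2 (0.18) and Atp5g3 (0.063) were lost. Those and Cox5a were also lost without at least 1 library, with the highest adjusted p of 0.19 for Cox8a without CD138+ DMSO replicate 1, 0.16 for Ndufa5 and 0.092 for Cox5a without CD138+ GSK-J4 replicate 1, and 0.12 for Sdha (without CD138+ DMSO replicate 1), Uqcrc1 (without CD138+ DMSO replicate 2 or 3) and Uqcrc2 (without CD138+ DMSO replicate 3 or CD138+ GSK-J4 replicate 4). For Atp5g3 it was 0.11 without CD138+ DMSO replicate 3 or CD138+ GSK-J4 replicate 1, and for Ndufs4 0.051 without CD138+ DMSO replicate 1. The number of libraries whose omission ended the call was 11 for Cox8a, 11 for Ndufa5, 9 for Uqcrc2, 8 for Sdha, 5 for Uqcrc1, 5 for Atp5g3 and 4 for Cox5a. The summed level of the 7 mature B cell markers was 1052 to 1112 RPKM with DMSO and 822 to 867 RPKM with GSK-J4, that of the 5 plasma cell markers was 2849 to 3063 and 3111 to 3289 RPKM, and their part in these differences was not tested.

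**Figure D5:**
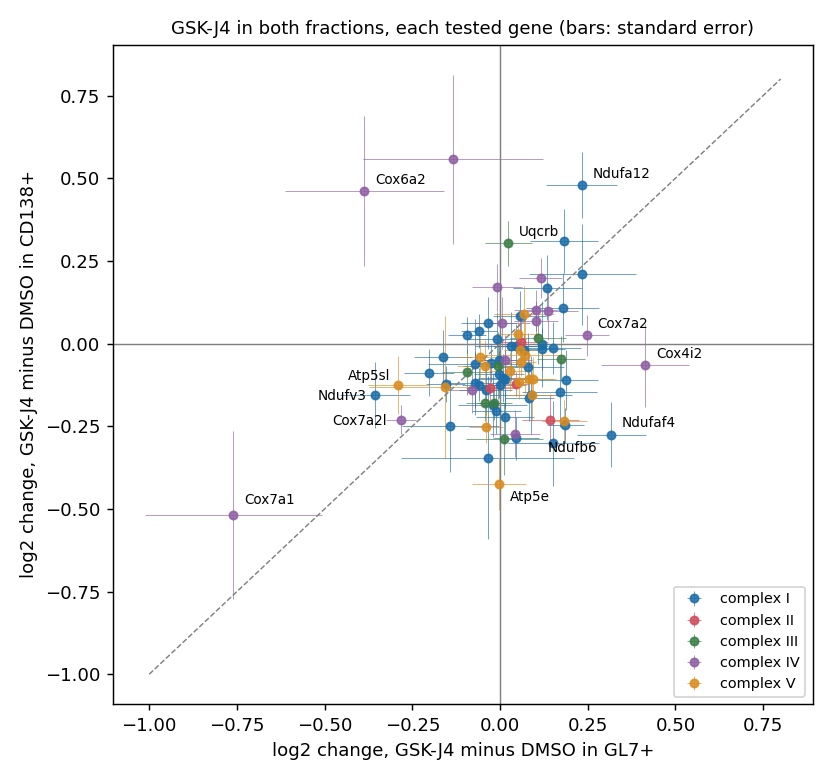
Log2 change with GSK-J4 on the log2(RPKM + 1) scale in GL7+ cells (x axis) and in CD138+ cells (y axis) for each tested gene, coloured by complex, with bars of 1 SE and a dashed line of equal change. Cox7a2l is lower on both (-0.28 and -0.23), and Ndufb6 is higher on one and lower on the other (0.19 and -0.25).

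The difference between the drug effects was tested directly, as CD138+ minus GL7+. By limma it called 0 members higher (beside 0.322% of all genes), as did voom on the recovered reads, and 2 lower (2.27% of the members, beside 0.644% of all genes), namely Ndufb6 and Atp5g3. In all, 20 members had an unadjusted p under 0.05 by limma. The share of all genes at that cut was not worked out, so nothing is read from this count. Ndufb6 was at 84.2, 90.7 and 79.8 RPKM with DMSO and 96.5, 93.5 and 99.8 with GSK-J4 in GL7+ cells, and at 94.4, 93.3 and 101 (DMSO) against 78.9, 80.9 and 82.7 (GSK-J4) RPKM in CD138+ cells. Atp5g3 was at 297, 328 and 332 (DMSO) against 357, 353 and 376 (GSK-J4) RPKM in GL7+ cells, and at 327, 330.5 and 348 (DMSO) against 267, 293 and 295 (GSK-J4) RPKM in CD138+ cells. The drug libraries were thus the higher ones in GL7+ cells and the lower ones in CD138+ cells, without overlap, for both genes. Both were picked by this test, so that order is no separate support. In GL7+ cells alone Atp5g3 was not called by limma (0.18, adjusted p 0.079). It was called there by median-of-ratios scaling (0.028) and by voom (0.021). For Ndufb6 and Atp5g3 the differences of the log2 changes were -0.43 ± 0.07 (adjusted p 0.018) and -0.42 ± 0.09 (0.047). With the mouse as a block neither passed (0.063 and 0.084, 0 calls), and without naive replicate 2 there were 6 calls. Without single libraries the adjusted p reached 0.067 for Ndufb6 (without GL7+ GSK-J4 replicate 3; the call was also lost without GL7+ DMSO replicate 1 or 3, CD138+ DMSO replicate 1 or CD138+ GSK-J4 replicate 2) and 0.14 for Atp5g3 (without GL7+ DMSO replicate 1 or GL7+ GSK-J4 replicate 3), which lost its call without any 1 of the 12 cultured libraries.

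Under GSK-J4, 13 members were higher in CD138+ than in GL7+ cells (14.8%, beside 24.0% of all genes) and 34 lower (38.6%, beside 39.0%), with a median of -0.10 for the members and for all genes. With median-of-ratios scaling the split was 22 higher and 27 lower. Ndufaf4 differed more than under DMSO, at 13.4, 12.8 and 14.4 RPKM in GL7+ and 6.04, 5.93 and 6.24 RPKM in CD138+ cells (-1.04 against -0.45), although the difference of the drug effects did not pass the test (-0.59, adjusted p 0.065; 0.041 by median-of-ratios scaling and 0.013 by voom on the recovered reads). Sdhd (-0.63), Sdha (-0.56), Cox5a (-0.49), Atp5a1 (-0.46) and Atp5b (-0.36) were lower in CD138+ cells, and 8 of the 17 complex V genes were called lower. Ndufa1 (0.67), Sdhc (0.40) and Cox4i2 (2.44) were higher, the same direction as under DMSO. Cox4i2 was at 0.91, 0.999 and 0.66 RPKM in GL7+ and 8.08, 9.65 and 9.44 RPKM in CD138+ cells with the drug, and Cox7a1 at 4.33, 3.57 and 3.13 (GL7+) against 1.31, 0.35 and 2.01 (CD138+) RPKM (-1.14). The Cox7a1 values rested on 16, 12 and 14 reads in GL7+ and 3, 1 and 5 reads in CD138+ libraries. For Cox4i2 and Cox7a1 the order of the fractions was the one found under DMSO. Cox6a2 had the other order, at 2.56, 2.48 and 1.86 RPKM in GL7+ and 4.13, 4.13 and 3.13 RPKM in CD138+ cells with the drug, and its share of the summed RPKM of Cox6a1 and Cox6a2 was 0.97% ± 0.22 and 1.27% ± 0.25, beside 1.48% ± 0.26 and 0.89% ± 0.16 with DMSO. The fractions did not overlap in RPKM under either treatment, but the values rested on few reads. These were 17, 15 and 15 in GL7+ and 17, 21 and 14 in CD138+ libraries with the drug. With DMSO they were 24, 22 and 25 in GL7+ and 17, 22 and 14 in CD138+ libraries. The log2 difference of Cox6a2 under the drug was 0.54 ± 0.23 (adjusted p 0.051). It passed under some alternatives, among them median-of-ratios scaling (0.026), quantile normalization (0.014) and voom (0.04), in a range of 0.0042 to 0.34 over all of them. The difference of the drug effects on Cox6a2 did not pass (0.85 ± 0.32, adjusted p 0.25).

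Genes that work with the chain were described from lists by function. Their counts stand beside the shares of all genes tested, which were 41.3% higher and 40.3% lower in GL7+ than in naive cells, 39.9% and 43.5% in CD138+ than in naive cells, and 21.8% and 36.9% in CD138+ than in GL7+ cells under DMSO. The medians of all genes were 0.01, -0.05 and -0.10 in these comparisons. Cycs, the somatic cytochrome c that carries electrons between complexes III and IV, was at 17.8, 18.1 and 19.8 RPKM in naive, 65.2, 67.8 and 64.5 in GL7+ DMSO and 63.6, 58.7 and 60.5 in CD138+ DMSO libraries (1.77 and 1.66 on the log2 scale). With GSK-J4 it was at 79.96, 81.8 and 85.2 RPKM in GL7+ cells, higher than with DMSO (0.32 ± 0.05, adjusted p 0.0014). Of the 14 tested genes for cytochrome c and coenzyme Q synthesis, 8 were called higher and 5 lower in GL7+ than in naive cells (median 0.45), and 7 and 4 in CD138+ cells (0.15). Of 13 enzymes of the tricarboxylic acid cycle, all were called higher in GL7+ cells (median 0.90), while in CD138+ cells 9 were higher and 1 lower (0.61). Examples are citrate synthase Cs (1.01 and 0.91), Mdh2 (1.25 and 1.23) and Idh3a (1.64 and 0.98). Between the fractions 1 of these enzymes was higher and 8 were lower in CD138+ cells, led by Fh1 (-0.66) and Idh3a (-0.66), with a median of -0.21 over the 13.

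Assembly factors of complexes II to V, 30 tested, were called higher for 22 and lower for 2 in GL7+ cells (median 0.51), and for 15 and 3 in CD138+ cells (0.28), beside 41.3% and 40.3%, and 39.9% and 43.5%, of all genes. Sco1 and Cox17, which bring copper to complex IV, rose by 1.37 and 2.03 and by 1.34 and 1.49. In CD138+ against GL7+ cells 2 of these factors were higher, Sco1 among them (0.65), and 11 of the 30 lower, a share close to the 36.9% of all genes called lower (median -0.23, with -0.10 for all genes). The other complex I assembly factors, 7 tested, were called higher for 5 in GL7+ cells, and higher for 3 and lower for 3 in CD138+ cells, and 4 were lower in CD138+ than in GL7+ cells. The medians of these 7 were 0.44, 0.04 and -0.19. Of 8 tested carriers and channels, 6 rose in GL7+ cells, with the ADP/ATP carrier Slc25a5 going from 198 ± 18.7 to 593 ± 19.6 RPKM. In CD138+ cells 6 rose and 2 fell, and 7 were lower than in GL7+ cells. The medians of the 8 were 1.53, 0.95 and -0.46. With GSK-J4, 4 of the 8 were lower in CD138+ cells, beside 8.61% of all genes (median -0.21, with -0.03 for all genes), namely the phosphate carrier Slc25a3 (-0.30), Slc25a5 (-0.27) and the outer membrane channels Vdac1 (-0.17) and Vdac3 (-0.32).

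Of 19 tested regulators of mitochondrial gene expression, 9 were called higher and 8 lower in GL7+ cells, beside 41.3% and 40.3% of all genes, with a median of 0.14. In CD138+ cells 5 were higher and 9 lower, beside 39.9% and 43.5%, with a median of -0.11. Apart from the 5 called higher in CD138+ cells, a smaller share than of all genes, these counts were near the background. The coactivator Ppargc1a was at 0.98, 1.04 and 0.84 RPKM in naive libraries and 0.079, 0.093 and 0.15 in GL7+ DMSO libraries, and was below the filter. Ppargc1b was at 3.58 ± 0.74 RPKM in naive, 1.68 ± 0.25 in GL7+ DMSO and 1.14 ± 0.13 in CD138+ DMSO cells (-0.77 and -1.09), and the nuclear receptor Esrra was also lower than in naive cells (-1.24 and -1.50). The third coactivator of the family, Pprc1, differed less (-0.30 and -0.16). Tfam, which packs and transcribes mitochondrial DNA, was at 18.99 ± 2.58, 22.9 ± 1.19 and 17.4 ± 0.103 RPKM in the same order of groups, with log2 changes from naive of 0.26 (adjusted p 0.0055) in GL7+ and -0.11 (0.19) in CD138+ cells. The RNA-binding pair Slirp (1.48 and 1.40) and Lrpprc (0.71 and 0.15), which stabilise mitochondrial messenger RNA, were higher in both fractions. Between the fractions 1 regulator was higher and 10 were lower in CD138+ cells, Lrpprc with -0.56 among them, beside 21.8% and 36.9% of all genes, with a median of -0.25.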

How the data were processed

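RNA sequencing was read from 1 table of RPKM values and gene lengths, as deposited. Alignment was with TopHat2 to mm9, per the submitters' processing notes; aligner version, counting tool, annotation and use of strand: not given in the sources used here. The deposited RPKM scale each gene's reads to its deposited length and to the library's reads assigned to genes, as the values themselves show. Low values were whole multiples of 1 step, taken as 1 read, in 100% of cases within 0.1 step (up to 20 steps). This gave depths of up to 13190019 reads. In naive replicate 2 the recovered reads of the members were all even, so its step is probably only a fraction of 1 read. Its recovered depth of 2635999 reads is an upper limit. The recovered reads of that library, which voom also used, are probably too high. The table has 0 value columns that could not be mapped. Depth limits the low genes most, and lower depth in naive replicate 2 makes its values less precise. SDs and SEs hold the spread between libraries, and no interval from counting error alone is given.

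Genes reaching 1 RPKM in 3 or more libraries (10866 of 21761) were tested on log2(RPKM + 1) with a trended limma fit (R 4.3.3, limma 3.58.1) over all 15 libraries, with Benjamini-Hochberg adjustment over all genes tested at 0.05. Comparisons were GL7+ DMSO and CD138+ DMSO against naive, CD138+ against GL7+ within each treatment, GSK-J4 against DMSO in each fraction, and the difference of the latter. The fit without the block treats libraries of 1 mouse as independent. Shares used exact permutation tests. The fit was tested on simulated data. Figures were made with matplotlib 3.10.9 (python 3.11.15).

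Members and lists were chosen with earlier results of these data known. Named were, per comparison, up to 4 called members per complex and direction by size of change, if the higher group reached 5 RPKM; a list of main subunits, isoforms and assembly factors; the highest and lowest of each complex; calls against the direction of most; calls of the difference between drug effects; and, in other lists, up to 4 genes by adjusted p with Cycs, Tfam, Ppargc1a, Ppargc1b and Pprc1. Ndufa8, Ndufv2, Atp5d and Atp5f1 were named outside this rule, with their values seen. Lists of other genes were functional groups and cell type markers.

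Replicate numbers name the mouse in the labels. Deviations from group means had a median correlation of 0.094 over 15 pairs of cultured libraries from 1 mouse (-0.031 to 0.191), 0.041 over 11 pairs with a naive library, and -0.032 over 52 pairs from different mice. The mouse as a block was therefore an alternative fit, in which the library without a mouse forms a block of its own. The other alternatives were median-of-ratios scaling, quantile normalization, pseudocounts of 0.1 and 5, no filter, a filter at 5 RPKM, voom on recovered reads, a fit of the compared groups alone, and leaving out each library. Promoter sequences are from RefSeq (GRCm38.p6). Exon overlaps are from a GENCODE annotation of a later build than mm9 and used without coordinates: 25 of 92 members share exon bases with another gene and 8 share at least 20%. Reads of these, and of genes with near-identical copies, can be split between genes, so their levels are uncertain. Protein sequences were not compared.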

Additional observations from a re-analysis of the deposited data

Results flagged for a closer look

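For 2 members the effect of GSK-J4 differed between the fractions by the test of that difference. Ndufb6, an accessory subunit of the membrane arm of complex I, was higher with GSK-J4 in GL7+ cells (0.19 on the log2 scale) and lower in CD138+ cells (-0.25), a difference of -0.43 ± 0.07 (limma, adjusted p 0.018). Atp5g3, a gene for subunit c of the ATP synthase, had changes of 0.18 and -0.24, a difference of -0.42 ± 0.09 (adjusted p 0.047). Its change in GL7+ cells alone was not called (limma, adjusted p 0.079). In both genes all 3 drug libraries lay above the DMSO libraries in GL7+ cells and below them in CD138+ cells. Both were picked by this test, so the order of their libraries is no separate support. With the mouse as a block the adjusted p were 0.063 and 0.084. The call of Atp5g3 was also lost without any single cultured library, and that of Ndufb6 without some of them. No group held 4 or more libraries, so single libraries that stand apart within a group were not looked for.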

How the results depend on the processing

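The numbers of members called against naive cells (86 in GL7+ and 82 in CD138+ cells) stayed within 1.5 times under every alternative, with 85 to 86 and 80 to 82 when single libraries were left out. Between the fractions 35 members were called under DMSO, 29 to 48 without single libraries and 54 with only the compared groups in the fit, and 43 to 57 under GSK-J4. For GSK-J4 in GL7+ cells the 7 calls were 1 to 14 without single libraries, 4 with a pseudocount of 0.1, 3 with no filter and 11 by voom on recovered reads. In CD138+ cells the 14 calls were 7 to 18 without single libraries, the highest without naive replicate 2. The 2 calls of the difference between drug effects were 0 to 6 without single libraries, 1 with a pseudocount of 0.1, 1 with no filter, 5 by voom and 9 with only the compared groups. With the mouse as a block, 7 members were called for GSK-J4 in CD138+ cells and 0 for the difference between drug effects, 8 in GL7+ cells, and 44 between the fractions under GSK-J4. Of the genes named in the text the block also ended the calls of Ndufaf7 in CD138+ against naive cells and of Ndufa6 between the fractions under GSK-J4. Quantile normalization turned the direction of Sdha (-0.036) and Cox7a2l (-0.12) in GL7+ and of Cox7a2l (-0.30) in CD138+ against naive cells. The causes were not tested. Calls named by rule that held under every alternative were 36 of 40 in GL7+ and 34 of 37 in CD138+ against naive cells, 21 of 32 between the fractions under DMSO and 28 of 33 under GSK-J4, and for GSK-J4 1 of 7 in GL7+ and 6 of 14 in CD138+ cells. For the difference between drug effects the number was 0 of 2. Changes of genes near 1 RPKM, such as Cox4i2 in GL7+ cells, rest on few reads and shrink with the pseudocount.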

Other observations

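Genes of mitochondrial turnover and the response to low oxygen were listed apart from the chain. Bnip3, an outer membrane receptor for the removal of mitochondria, was at 5.83, 6.91 and 5.62 RPKM in naive, 81.7, 87.3 and 67.1 in GL7+ DMSO and 56.5, 61.5 and 45.9 in CD138+ DMSO libraries, and rose by 3.48 and 2.96 on the log2 scale (limma, adjusted p 5.8e-10 and 3.2e-09). Of the 6 genes listed 5 were higher and 1 was lower than naive in each fraction, beside 41.3% higher and 40.3% lower of all genes tested in GL7+ and 39.9% and 43.5% in CD138+ cells, and all 6 were lower in CD138+ than in GL7+ cells under DMSO, beside 36.9%. The median differences of the 6 were 1.22, 0.70 and -0.51. With GSK-J4 3 of the 6 were lower in GL7+ cells, beside 7.71% of all genes. These were Bnip3, at 60.02, 49.8 and 34.2 RPKM (-0.73, adjusted p 0.032), its relative Bnip3l (-0.75, 0.0068), and Pdk1, a kinase that holds back the entry of pyruvate into the tricarboxylic acid cycle (-0.65, 0.008). In CD138+ cells 2 of the 6 were lower with the drug, beside 8.61%.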
